A study of Homo sapiens with 12 samples.

Results

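Ribosome biogenesis genes code for the nucleolar proteins and RNA polymerase I subunits that make and assemble the ribosome. They were followed here as a list of 40 genes, named by symbol, with earlier results of these data known. The gene count table held a row for 39 of them, among 13820 rows in all, and all 39 passed the filter on low counts that left 12602 genes for testing. BOP1 had no row under its symbol or its Ensembl identifier and was not analysed here. The cells were Z-138, an established human mantle cell lymphoma line. There were 4 groups of 3 libraries: control shRNA in DMSO, SMARCA4 shRNA in DMSO, control shRNA under 3 µM ibrutinib plus 3 µM venetoclax, and SMARCA4 shRNA under the same drugs. All of the cells were cultured with doxycycline, so the controls carried it too. The labels name no second SMARCA4 construct, and loss of SMARCA4 cannot be told apart here from any other effect of that construct. SMARCA4 is an ATPase of the SWI/SNF chromatin remodelling complexes. Ibrutinib inhibits Bruton's tyrosine kinase and venetoclax inhibits BCL2.

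Ribosome assembly begins in the nucleolus, where RNA polymerase I transcribes a long precursor RNA. Small nucleolar ribonucleoproteins (snoRNPs) then guide its chemical modification, while a large complex, the small subunit processome, and separate sets of factors for the large subunit fold, cut and package it. The genes for these proteins are often expressed together in growing cells, and many are known targets of MYC, which binds the DNA element CACGTG called the E-box.

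The targeted gene was checked against the labels. SMARCA4 stood at 577 ± 21.6 CPM (counts per 1000000, TMM-scaled; SD, n = 3) in control cells and 170 ± 9.67 CPM in knockdown cells in DMSO, and at 610 ± 28.2 and 175 ± 8.66 CPM under drug. It fell by 1.77 on the log2 scale in DMSO (SE 0.06), and under drug it fell by 1.80. Library totals ran from 7279503 to 22528537 counts, and the deepest library, SMARCA4 shRNA in DMSO replicate 3, was thinned in an alternative that left 19 and 17 members lower. Of 8 B-cell and mantle cell lymphoma markers, 7 had a row, CCND1 and SOX11 among them, and their summed level was 4866 to 5675 CPM in control and 4351 to 4520 CPM in knockdown cells in DMSO, and 5180 to 5396 against 4295 to 4992 CPM under drug. Of 7 T and NK cell markers, CD3G, CD4 and PRF1 had rows. Their sum lay at 17.9 to 19.6 CPM in the controls and 1.75 to 3.19 CPM in the knockdown libraries in DMSO, and at 16.8 to 21.0 against 2.07 to 3.71 CPM under drug. No row was found for the 4 monocyte markers, and of 5 fibroblast and epithelial markers COL1A1 alone had a row (19.5 to 23.4 against 14.97 to 15.09 CPM in DMSO and 24.6 to 25.5 against 14.5 to 15.7 CPM under drug). Unlike the SMARCA4 values, the marker levels are counts per 1000000 of the library total without TMM scaling. The part of these marker changes in the results below was not tested. The column used for control shRNA under drug, replicate 1, named no treatment and was assigned because no other column named that sample. The values of the members and lists without that library are given together after the interaction.

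SMARCA4 knockdown came with lower levels of a large share of the ribosome biogenesis genes. In DMSO, 20 of the 39 members fell, 1 rose and 18 did not pass the threshold of an adjusted p below 0.05 in edgeR's quasi-likelihood test. Across all genes tested, 16.2% were called lower and 15.1% higher, against 51.3% of the members lower. Under drug, 17 members fell, 1 rose and 21 did not pass, against a background of 16.3% lower and 14.8% higher. Without the library assigned by elimination, 19 fell in DMSO, and under drug 18 fell, among them the 17. Members lower in either comparison had a median level of 113 CPM, and those lower in neither 63.0 CPM. With only genes of at least 5 CPM in at least 3 libraries, 18.1% of all genes were lower in DMSO and 18.5% under drug. The members lower were then 20 and 17. The part of expression level in these shares was not tested. The changes were modest. Members called lower stood at 71.8% to 90.2% of the control level in DMSO and at 68.8% to 88.0% under drug. The median log2 fold change of the 39 members was -0.19 in DMSO, where that of all genes was 0.00, and -0.16 under drug, again with 0.00 for all genes.

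**Figure D1:**
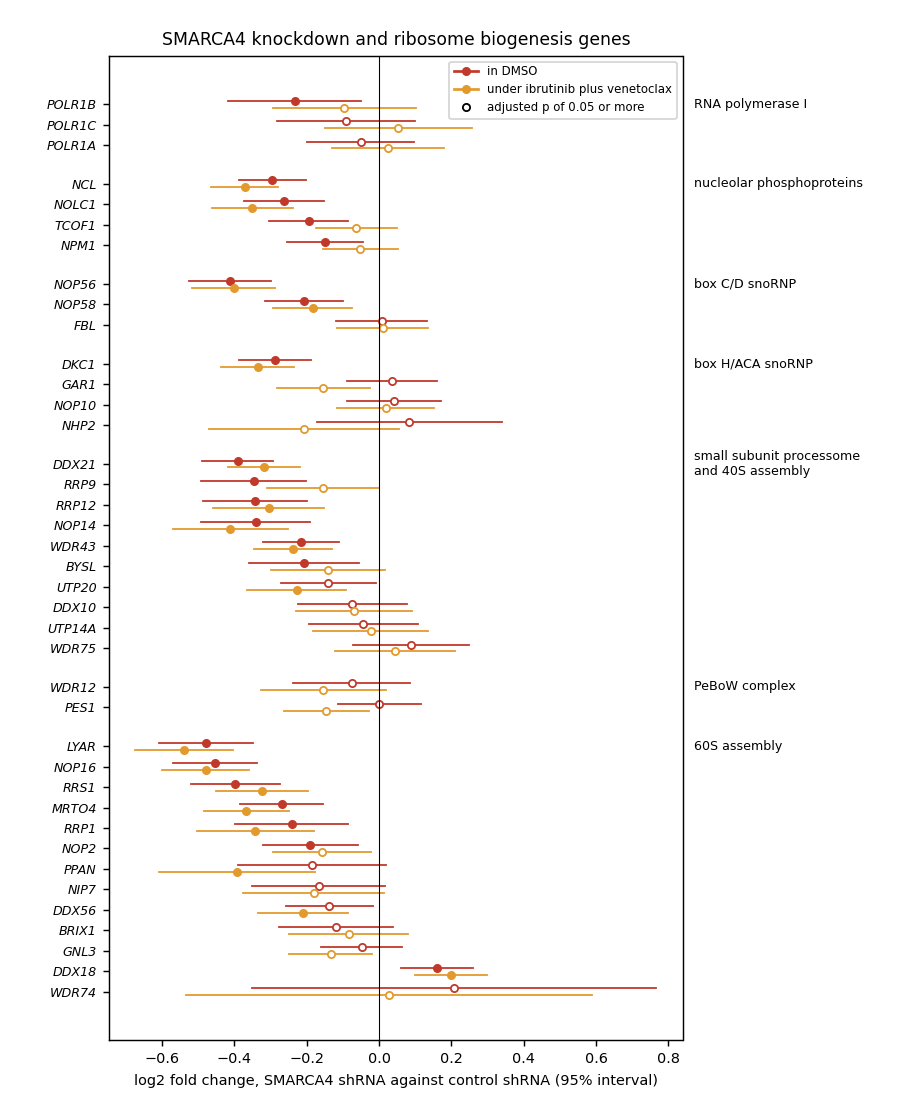
Log2 fold change of each of the 39 members, SMARCA4 shRNA against control shRNA, in DMSO (red) and under ibrutinib plus venetoclax (orange), with 95% intervals; filled points have an adjusted p below 0.05 and genes are grouped by role. Most points lie left of 0, LYAR and NOP16 farthest, while DDX18 is the filled point to the right in both conditions.

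The fall appeared without and with drug in comparisons that share no library. The members lower in both comparisons numbered 14, which is 70.0% of those lower in DMSO and 82.4% of those lower under drug. Over all genes, 1512 were lower in both, 74.1% and 73.4% of the respective lists. The 14 were NOP56, NOP58, DKC1, NCL, NOLC1, DDX21, NOP14, RRP12, WDR43, LYAR, NOP16, RRS1, MRTO4 and RRP1. RRP9, POLR1B, BYSL, TCOF1, NOP2 and NPM1 passed in DMSO alone, and PPAN, UTP20 and DDX56 under drug alone. For none of these 9 did the difference between the conditions pass the interaction test. The highest knockdown library was below the lowest control library for 24 members in DMSO (21.5% of all genes did so) and for 25 under drug (21.2% of all genes). DDX18 was the 1 member with all 3 knockdown libraries above, where 21.4% of all genes did so in DMSO and 19.8% under drug.

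**Figure D2:**
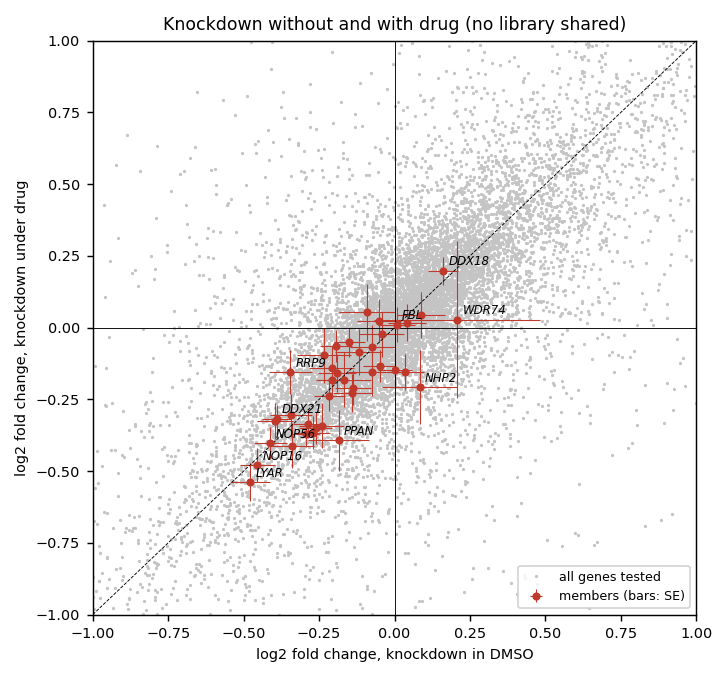
Log2 fold change with knockdown in DMSO (horizontal) against that under drug (vertical) for the members (red, bars are SE) and all genes tested (grey; genes beyond 1 on either axis lie outside the plot). LYAR, NOP16 and NOP56 sit near the diagonal at the lower left, while RRP9 is farther from 0 in DMSO (-0.35) than under drug (-0.15).

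The promoters of these genes were read for the E-box and 3 other elements. RefSeq promoters (build GRCh38.p14, 250 bases before to 50 after the start) were matched for 33 of the 40 members. NOP58, NOLC1, BOP1, RRP12, RRS1, DDX18 and TCOF1 had no entry. The letters CACGTG, which read the same on both strands, occurred in 11 of the 33 (33.3%), against 10.6% of the 8469 promoters of genes tested and 7.26% of all 35116. The windows below run from 100 bases before the start to 30 after it, with CACGTG and CCGGAAG (the ETS factors' element, on either strand) in capitals. MRTO4, NOP14 and WDR43 are shown because they fell in both knockdown comparisons and hold an E-box just past the start, FBL because it holds an E-box at a similar place and did not pass, and NOP16 because it fell in both and holds no E-box.
MRTO4 (chr1:19251705-19251834, + strand): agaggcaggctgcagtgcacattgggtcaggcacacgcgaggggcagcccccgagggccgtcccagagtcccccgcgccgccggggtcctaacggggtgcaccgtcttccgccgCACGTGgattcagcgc
NOP14 (chr4:2963377-2963506, - strand): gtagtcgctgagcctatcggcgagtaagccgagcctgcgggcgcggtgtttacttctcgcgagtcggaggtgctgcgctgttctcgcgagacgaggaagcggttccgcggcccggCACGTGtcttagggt
WDR43 (chr2:28894567-28894696, + strand): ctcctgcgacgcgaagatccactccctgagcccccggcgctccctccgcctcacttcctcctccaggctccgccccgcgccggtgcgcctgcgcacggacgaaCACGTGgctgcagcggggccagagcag
FBL (chr19:39846350-39846479, - strand): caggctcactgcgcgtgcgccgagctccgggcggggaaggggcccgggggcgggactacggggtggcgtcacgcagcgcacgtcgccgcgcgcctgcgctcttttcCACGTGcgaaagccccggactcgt
NOP16 (chr5:176388569-176388698, - strand): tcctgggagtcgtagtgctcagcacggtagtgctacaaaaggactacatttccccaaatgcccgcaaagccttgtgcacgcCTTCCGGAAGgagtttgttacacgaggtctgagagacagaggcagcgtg

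Counting from the RefSeq start, the E-box began at +15 in MRTO4, +16 in NOP14, +4 in WDR43 and +7 in FBL. In PES1 it began at +14, in BYSL at +29 and in NOP2 at +36, and in RRP9, UTP20 and NOP10 it lay just before the start, at -5, -10 and -11. UTP14A held it far upstream, at -241, and NOP10 held another at -170. The position was noticed after the sequences were read. An E-box past the start was found in 7 of the 33 member promoters (21.2%), against 1.23% of the promoters of genes tested. Among other genes of small subunit assembly, which share no gene with the members, it was found in 10 of 37 promoters (27.0%), and among other genes of large subunit assembly in 6 of 36 (16.7%). Of 13 promoters of other RNA polymerase I genes, 0 held an E-box at any place, and of 11 of RNA exosome genes 1 held it past the start. None of 67 cytosolic and none of 62 mitochondrial ribosomal protein promoters held 1 there. Among the 33 members with a promoter entry, were 18 of the 23 that fell in at least 1 knockdown comparison. Of these 18, 7 held an E-box, and of the other 15, 4 did. Of the 5 largest falls in DMSO, LYAR, NOP16, NOP56 and DDX21 held none and RRS1 had no entry. Of the 5 largest under drug, NOP14 held it and LYAR, NOP16, NOP56 and PPAN did not.

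**Figure D3:**
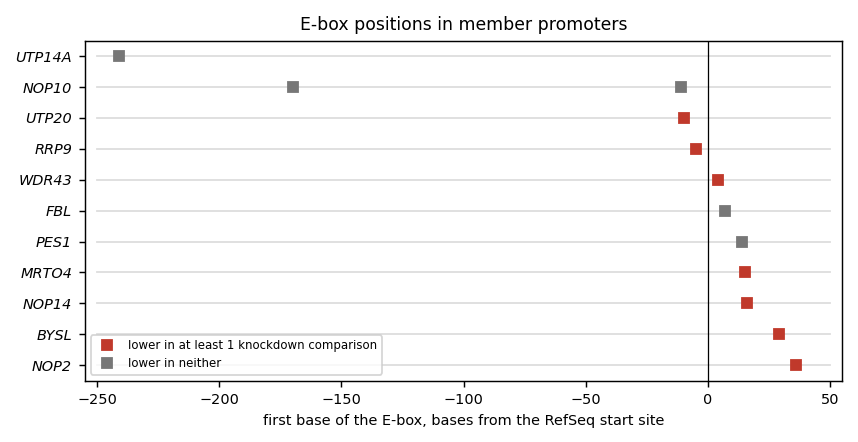
First base of each E-box in the 11 member promoters that hold it, in bases from the RefSeq start site (vertical line); red marks members lower in at least 1 knockdown comparison and grey the others. All but UTP14A have an E-box between -11 and +36, and red and grey squares are interleaved.

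The other elements were counted on both strands. CCGGAAG occurred in 12 of 33 member promoters (36.4%) against 20.8% of those of genes tested, CCAAT in 12 (36.4% against 37.7%), and GCGCATGC, the core of the NRF1 element, in 2 (6.06% against 6.03%). Among members with a promoter entry, CCGGAAG was held by 5 of the 18 that fell and by 7 of the 15 others. A match of letters describes these windows only, and no binding was measured.

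Of the RNA polymerase I subunits, POLR1B, the second-largest subunit of the enzyme, fell in DMSO. It was at 25.3, 26.6 and 23.5 CPM in the control and 20.7, 22.1 and 21.3 CPM in the knockdown libraries, which did not overlap. The log2 fold change was -0.23 (SE 0.09, adjusted p = 0.0464), and under drug it was -0.10 (adjusted p = 0.493). The call was lost in 14 of 22 alternatives, among them the fits without control DMSO replicate 1 or 2, any knockdown DMSO library, control drug replicate 1 or knockdown drug replicate 1 or 2 (adjusted p 0.0514 to 0.174). The catalytic subunit POLR1A had a log2 fold change of -0.05 in DMSO and 0.02 under drug, and POLR1C, which polymerases I and III share, -0.09 and 0.05. Neither passed in either condition.

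The 4 nucleolar phosphoproteins all fell in DMSO, and NCL and NOLC1 fell again under drug. NCL is nucleolin, an abundant RNA-binding protein of the nucleolus. It stood at 1932, 1874 and 1913 CPM in control and 1575, 1530 and 1556 CPM in knockdown cells in DMSO. Under drug, the values were 1812, 1846 and 1824 CPM in control and 1369, 1404 and 1463 CPM in knockdown cells. In neither condition did the groups overlap, and the log2 fold change was -0.29 in DMSO (SE 0.04, adjusted p = 4.63e-06) and -0.37 under drug (SE 0.05, adjusted p = 9.4e-08). NOLC1, a chaperone of snoRNPs, fell by 0.26 and by 0.35. TCOF1, known as treacle and a partner of RNA polymerase I, fell by 0.19 in DMSO and was at -0.06 under drug (adjusted p = 0.424).

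NPM1, nucleophosmin, had the highest level of all members (mean 2659 CPM over 12 libraries), followed by NCL (1675 CPM) and FBL (955 CPM). Its libraries read 3042, 2878 and 2699 CPM in control and 2549, 2582 and 2639 CPM in knockdown cells in DMSO. These did not overlap, though the lowest control and the highest knockdown library were close. The log2 fold change was -0.15 (SE 0.05, adjusted p = 0.0243). The call was lost without control DMSO replicate 1 or 2 or any knockdown DMSO library (adjusted p 0.0518 to 0.235). Under drug, control libraries at 2557, 2642 and 2698 CPM and knockdown libraries at 2577, 2677 and 2366 CPM overlapped, with a log2 fold change of -0.05 (adjusted p = 0.487). GENCODE release 29 names 45 pseudogenes after NPM1, so reads could be split among near-identical copies and its values are uncertain.

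Within the box C/D snoRNPs, which guide methylation of ribosomal RNA, the scaffold proteins fell and the methyltransferase did not pass. NOP56 stood at 557, 544 and 516 CPM in control and 408, 394 and 413 CPM in knockdown cells in DMSO. Under drug it was at 457, 501 and 528 CPM against 351, 398 and 376 CPM. Every knockdown library was below every control library, and the log2 fold change was -0.41 in DMSO (SE 0.06, adjusted p = 6.43e-07) and -0.40 under drug (SE 0.06, adjusted p = 1.27e-06). NOP58, its paired scaffold, fell by 0.21 and by 0.18. The call of NOP58 under drug was lost without control drug replicate 2 (adjusted p = 0.0835) and with library totals without scaling factors (log2 fold change -0.10, adjusted p = 0.151). FBL, fibrillarin, the methyltransferase itself, was at 1011, 972 and 908 CPM in control and 965, 982 and 959 CPM in knockdown cells in DMSO. These libraries overlapped, and the log2 fold changes were 0.01 in both conditions, with a 95% interval of -0.12 to 0.13 in DMSO.

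The box H/ACA snoRNPs, which guide pseudouridylation, differed in which protein fell: here the enzyme did, and its partners did not pass. DKC1, dyskerin, the pseudouridine synthase, stood at 542, 518 and 532 CPM in control and 446, 423 and 437 CPM in knockdown cells in DMSO. Under drug the libraries were at 497, 519 and 529 CPM and at 391, 419 and 414 CPM. The groups did not overlap, and DKC1 fell by 0.29 in DMSO (SE 0.05, adjusted p = 2.55e-05) and by 0.34 under drug (SE 0.05, adjusted p = 3.05e-06). The structural partners NOP10 and GAR1 had log2 fold changes of 0.04 each in DMSO. Under drug GAR1 was at -0.15 (adjusted p = 0.0635) and NOP10 at 0.02. Without knockdown drug replicate 1 GAR1 passed under drug (adjusted p = 0.039).

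NHP2, the remaining H/ACA protein, was among the lowest members. It read 10.9, 12.6 and 14.4 CPM in control and 11.9, 12.2 and 14.9 CPM in knockdown cells in DMSO, and 15.9, 15.1 and 16.6 CPM against 13.4, 13.3 and 14.5 CPM under drug. The DMSO libraries overlapped and the drug libraries did not, with log2 fold changes of 0.08 (adjusted p = 0.661) and -0.21 (adjusted p = 0.238). WDR74, a large subunit assembly factor, had the lowest level, 2.54 CPM on average. It stood at 1.90, 2.42 and 2.03 CPM in control and 1.64, 2.82 and 2.66 CPM in knockdown cells in DMSO. Under drug the libraries read 2.68, 3.10 and 2.66 CPM and 2.89, 2.39 and 3.29 CPM, with overlap in both conditions. Its 95% interval in DMSO ran from -0.35 to 0.77, so a fall of the size seen for LYAR lay outside it and a rise of that size inside.

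Of the 10 factors of the small subunit processome and 40S assembly, 6 fell in DMSO and 5 under drug. DDX21, an RNA helicase that associates with polymerase I and snoRNAs, was at 671, 690 and 708 CPM in control and 528, 526 and 525 CPM in knockdown cells in DMSO. The drug libraries were at 664, 668 and 650 CPM and at 546, 500 and 544 CPM. DDX21 libraries did not overlap, and the log2 fold change was -0.39 in DMSO (SE 0.05, adjusted p = 1.27e-07) and -0.32 under drug (SE 0.05, adjusted p = 5.3e-06). NOP14, a structural subunit of the processome, stood at 96.5, 97.2 and 81.0 CPM in control and 79.2, 66.8 and 71.4 CPM in knockdown cells in DMSO. Under drug it was at 78.3, 81.6 and 89.7 CPM against 60.4, 64.7 and 62.6 CPM. It fell by 0.34 in DMSO (SE 0.07, adjusted p = 0.000518) and by 0.41 under drug (SE 0.08, adjusted p = 0.000117), with no overlap in either.

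RRP12, which helps export the small subunit precursor, fell by 0.34 and by 0.31, and WDR43, a processome subunit, by 0.22 and by 0.24. RRP9, the protein of the U3 snoRNP that binds its box B/C motif, fell by 0.35 in DMSO (adjusted p = 0.000286) and was at -0.15 under drug (adjusted p = 0.124). The control libraries of RRP9 under drug, at 48.8, 47.7 and 50.7 CPM, were all below the control libraries in DMSO, at 55.3, 55.3 and 60.8 CPM. BYSL, a late 40S factor, fell by 0.21 in DMSO (adjusted p = 0.0312). That call was lost without control DMSO replicate 1 or 2 or knockdown DMSO replicate 2 or 3 (adjusted p 0.0689 to 0.137). It was also lost with library totals, in DESeq2 and with the deepest library thinned (adjusted p 0.059, 0.0572 and 0.0598). UTP20 fell under drug alone (log2 fold change -0.23, adjusted p = 0.00902), and lost the call without knockdown drug replicate 1 (adjusted p = 0.0949) and with library totals (log2 fold change -0.15, adjusted p = 0.0936). UTP14A, DDX10 and WDR75 passed in neither condition, with log2 fold changes from -0.07 to 0.09.

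Neither measured subunit of the PeBoW complex, which acts in large subunit maturation, passed. WDR12 stood at 51.4, 43.1 and 46.1 CPM in control and 47.1, 45.9 and 41.7 CPM in knockdown cells in DMSO, and these overlapped. Its log2 fold change was -0.08 in DMSO (adjusted p = 0.511) and -0.15 under drug (adjusted p = 0.173). PES1 was at 0.00 in DMSO and -0.15 under drug (adjusted p = 0.0518). Without the control drug library assigned by elimination, PES1 passed under drug (adjusted p = 0.0342).

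Of the 13 factors of 60S assembly, 6 fell and 1 rose in DMSO, and 7 fell and 1 rose under drug. LYAR, a nucleolar zinc finger protein of growing cells, had the largest fall of all members in both conditions. It was at 106, 111 and 107 CPM in control and 76.0, 76.6 and 78.7 CPM in knockdown cells in DMSO. Under drug, the control libraries read 103, 112 and 101 CPM and the knockdown libraries 65.9, 76.9 and 74.4 CPM. The groups were well apart, and LYAR fell by 0.48 in DMSO (SE 0.06, adjusted p = 5.06e-07) and by 0.54 under drug (SE 0.07, adjusted p = 1.23e-07).

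NOP16, a nucleolar factor of 60S assembly, came next. Its libraries read 180, 168 and 166 CPM in control and 125, 120 and 130 CPM in knockdown cells in DMSO. Under drug they read 166, 163 and 176 CPM and 123, 123 and 116 CPM. They did not overlap, and NOP16 fell by 0.45 in DMSO (SE 0.06, adjusted p = 1.64e-07) and by 0.48 under drug (SE 0.06, adjusted p = 1.06e-07). RRS1, which takes part in loading the 5S ribonucleoprotein onto the large subunit precursor, was at 140, 137 and 123 CPM in control and 98.9, 104 and 101 CPM in knockdown cells in DMSO. It fell by 0.40 (SE 0.06, adjusted p = 4.45e-06), and by 0.32 under drug, where libraries at 123, 120 and 122 CPM faced 103, 92.1 and 95.8 CPM. RRS1 libraries did not overlap in either condition.

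**Figure D4:**
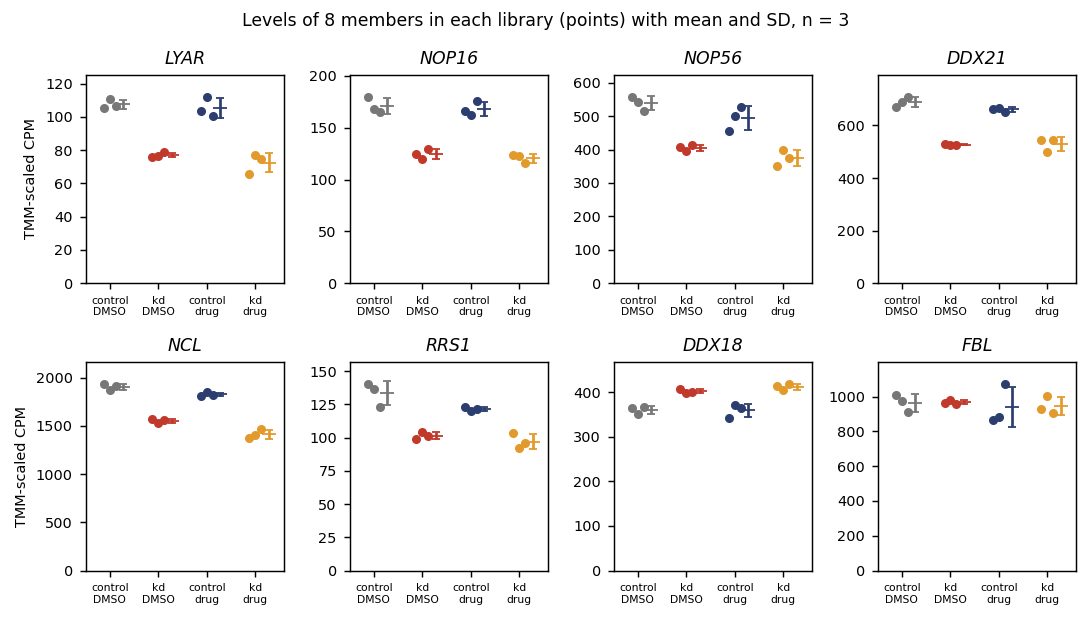
TMM-scaled CPM of 8 members in each of the 12 libraries (points), with mean and SD beside them (n = 3 per group; kd is SMARCA4 shRNA and drug is ibrutinib plus venetoclax). In the panels of LYAR, NOP16, NOP56, DDX21, NCL and RRS1 the knockdown libraries lie below the controls, in DDX18 they lie above, and in FBL they overlap.

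MRTO4, which holds the place of a stalk protein on the maturing large subunit, fell by 0.27 in DMSO and by 0.37 under drug, and RRP1 by 0.24 and by 0.34. The RRP1 call in DMSO was lost without control DMSO replicate 2 or knockdown DMSO replicate 2 or 3 (adjusted p 0.0591 to 0.149). NOP2, an RNA methyltransferase, fell by 0.19 in DMSO (adjusted p = 0.022) and was at -0.16 under drug (adjusted p = 0.0691). Without control DMSO replicate 1 or 3 or knockdown DMSO replicate 2 or 3 the DMSO call of NOP2 was lost (adjusted p 0.0534 to 0.2), and without knockdown drug replicate 3 it passed under drug (adjusted p = 0.0275). DDX56, a helicase, fell under drug alone, by 0.21, and with library totals without scaling factors it was at -0.13 and lost the call (adjusted p = 0.108).

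PPAN, a 60S factor, stood at 35.4, 33.7 and 37.5 CPM in control and 33.3, 31.8 and 29.4 CPM in knockdown cells in DMSO, with no overlap and a log2 fold change of -0.19 that did not pass (adjusted p = 0.166). Under drug the control libraries spread widely, at 37.0, 30.5 and 44.96 CPM, and overlapped the knockdown libraries at 27.4, 26.9 and 31.3 CPM. PPAN fell by 0.39 there (SE 0.11, adjusted p = 0.00441). Without control drug replicate 3, its highest library, the log2 fold change was -0.24 and the call was lost (adjusted p = 0.0921). BRIX1, NIP7 and GNL3 passed in neither condition, with log2 fold changes from -0.18 to -0.05.

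DDX18, another RNA helicase of large subunit assembly, was the member that rose. Its libraries were at 364, 350 and 366 CPM in control and 408, 398 and 401 CPM in knockdown cells in DMSO, and under drug at 343, 370 and 363 CPM in control and 413, 404 and 417 CPM in knockdown cells. All knockdown libraries were above all controls. The log2 fold change was 0.16 in DMSO (SE 0.05, adjusted p = 0.0112) and 0.20 under drug (SE 0.05, adjusted p = 0.00214). In DMSO the call was lost without control DMSO replicate 2 (log2 fold change 0.14, adjusted p = 0.0629), and under drug it passed in all 22 alternatives. GENCODE names 5 pseudogenes after DDX18.

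Summed over the 39 members, the share of all counts was 1.06% to 1.11% in control and 0.960% to 0.964% in knockdown cells in DMSO. Under drug it was 0.998% to 1.03% in control and 0.929% to 0.959% in knockdown cells. The knockdown libraries lay below the controls in each condition, and the control libraries under drug lay below those in DMSO. The 3 rows named as ribosomal RNA, which tags made from poly(A) ends are not designed to measure, took 9.15 ± 0.31% of the counts in control and 10.5 ± 0.53% in knockdown cells in DMSO, and 10.6 ± 0.33% and 8.36 ± 1.01% under drug (SD, n = 3). With these rows left out, 19 members fell in DMSO and 17 under drug. RNA18S5 rose with knockdown in DMSO (log2 fold change 0.17) and with the drugs in control cells (0.27). It fell with knockdown under drug (-0.39) and with the drugs in knockdown cells (-0.29). RNA28S5 fell in those same comparisons (-0.59 and -0.73). NPM1, NCL and FBL supply much of the sum, which follows them more than the other genes.

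The drugs alone moved no member past the threshold. In control cells 0 of 39 members were lower and 0 higher with ibrutinib plus venetoclax, where 0.555% and 0.738% of all genes were called. In knockdown cells it was again 0 of 39 in either direction, against 0.548% and 0.738%. DESeq2 and limma-voom also called 0 members in both comparisons. At an unadjusted p below 0.05 edgeR had 7 members in control and 5 in knockdown cells. The 95% intervals were within 0.5 of 0 on the log2 scale for 37 and 38 of the 39 members. The medians were -0.03 and -0.05, beside 0.00 for all genes.

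Among the members with the smallest adjusted p for the drugs in control cells were TCOF1 and RRP9. TCOF1 was at 155, 161 and 159 CPM in DMSO and 137.7, 139 and 146 CPM under drug, without overlap. Its log2 fold change was -0.17 (SE 0.05, adjusted p = 0.172). RRP9 was at -0.22 (SE 0.07, adjusted p = 0.196). NHP2 was at 0.33 (SE 0.13, adjusted p = 0.322), its libraries under drug all above those in DMSO. All 3 drug libraries lay below all 3 DMSO libraries for 6 members in control cells (7.18% of all genes) and above for 2 (7.38%), which are NHP2 and WDR74. In knockdown cells they lay below for 8 members (7.45% of all genes) and above for 0 (7.76%). Nearest to the threshold there were NCL, at -0.14 on the log2 scale (SE 0.05, adjusted p = 0.17), and NOP14, at -0.21 (SE 0.08, adjusted p = 0.261).

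The interaction compares the drug effect in knockdown cells with that in control cells. In edgeR's test 0 of 39 members passed in either direction, where 0.0159% of all genes were lower and 0.00794% higher, and DESeq2 and limma-voom called 0 as well. The 2 genes lower were the ribosomal RNA rows RNA18S5 (-0.55, adjusted p = 0.00203) and RNA28S5 (-0.79, adjusted p = 0.048). With the ribosomal RNA rows left out, 0 genes passed in either direction. At an unadjusted p below 0.05 there was 1 member, GAR1, with a log2 difference of -0.19 (SE 0.09, adjusted p = 0.914). RRP9 had the highest interaction value, 0.19 (95% interval -0.02 to 0.40), and NHP2 the lowest, -0.29 (-0.66 to 0.08). These intervals allow differences as large as many of the knockdown effects.

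Left out of the fit, the control drug library assigned by elimination moved the log2 fold change of the called members under drug by at most 0.08. All 17 members that fell under drug also fell without it, PES1 was added, and DDX18 still rose (0.17, adjusted p = 0.0276). LYAR was then at -0.55, NOP16 at -0.49, NOP56 at -0.46, NOP14 at -0.45, PPAN at -0.41, NCL at -0.38, DKC1 at -0.36, and DDX21 and RRS1 at -0.31 each. The RRP1 value moved most, from -0.34 to -0.42. For the drugs in control cells and for the interaction 0 members passed without it, with medians of -0.04 and -0.03. TCOF1 was then at -0.15 and RRP9 at -0.22 for the drugs in control cells. Among the wider lists under drug, 25 other small subunit, 13 other large subunit, 4 other polymerase I, 3 exosome and 21 mitochondrial ribosomal protein genes were lower, and 4 cytosolic ribosomal proteins were lower and 20 higher. CD3EAP lost its call under drug (adjusted p = 0.135). In DMSO, where that library enters only the shared estimate of spread, the cytosolic ribosomal proteins had 14 higher, and POLR1B lost its call.

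Genes of the same pathway outside the 39 were counted in lists by role. Over all genes, 16.2% were lower in DMSO and 16.3% under drug. Of 46 other small subunit assembly genes, 25 (54.3%) fell and 1 rose in DMSO. Under drug 26 (56.5%) fell and 1 rose, and the medians were -0.21 and -0.25. NAT10, an RNA acetyltransferase, fell by 0.39 in DMSO and by 0.38 under drug, and PWP2, a processome subunit, by 0.36 and by 0.41. Of 45 other large subunit genes, 17 (37.8%) fell and 2 rose in DMSO and 17 (37.8%) fell and 1 rose under drug (medians -0.13 and -0.14). RRP15 fell by 0.39 in both conditions, and EIF6, which keeps the immature large subunit from joining, by 0.33 and by 0.29. DDX24 was the 1 gene of these lists that passed for the drugs, falling by 0.23 in knockdown cells (adjusted p = 0.0302).

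**Figure D5:**
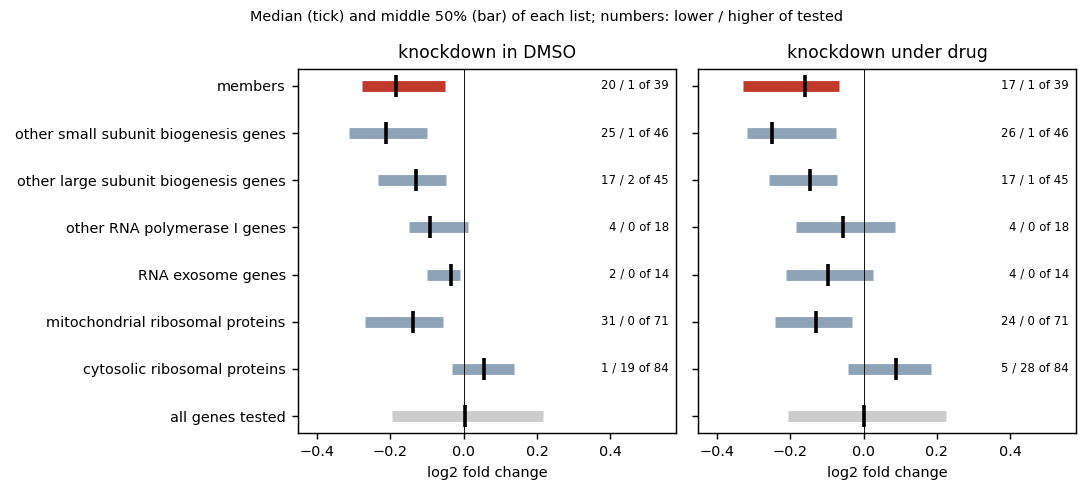
Median (tick) and middle 50% (bar) of the log2 fold change with knockdown for the members and 6 further lists, in DMSO and under drug, with the number lower, higher and tested. The bars of the members, the 2 lists of assembly genes and the mitochondrial ribosomal proteins lie left of 0. That of the exosome genes does so in DMSO alone. The median of the cytosolic ribosomal proteins lies right of 0 while their bar crosses it, and all genes tested centre on 0.

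Of 18 other RNA polymerase I genes, 4 (22.2%) were lower and 0 higher in each condition, where 16.2% and 16.3% of all genes were lower. TTF1, a termination factor, fell by 0.29 in DMSO and by 0.23 under drug, and CD3EAP, a polymerase I subunit, by 0.54 and by 0.30. Of 14 RNA exosome genes, 2 fell in DMSO (14.3%, near the share of all genes), led by EXOSC7 (-0.36), and 4 under drug (28.6%). The proteins of the ribosome itself were also counted. Of 84 cytosolic ribosomal protein genes, 1 fell and 19 (22.6%) rose in DMSO, and 5 fell and 28 (33.3%) rose under drug. Their medians were 0.06 and 0.09, and 15.1% and 14.8% of all genes were higher. Of 71 mitochondrial ribosomal protein genes, 31 (43.7%) fell in DMSO and 24 (33.8%) under drug, and 0 rose. Of all genes, 16.2% and 16.3% were lower. With library totals in place of TMM under drug, where the median of all genes moved to 0.08, the median of the members was -0.08 with 14 lower. The other small subunit genes then had 18 lower and 1 higher, the large subunit list 9 lower and 2 higher, the other polymerase I genes 1 lower and 2 higher (median 0.03) and the exosome genes 2 lower and 1 higher. The cytosolic ribosomal proteins had 2 lower and 47 higher (median 0.17) and the mitochondrial ones 13 lower and 2 higher (median -0.05). In DMSO library totals gave 28 cytosolic ribosomal proteins higher and 25 mitochondrial ones lower.

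MYC itself was at 42.4, 37.7 and 51.2 CPM in control and 38.0, 38.0 and 45.6 CPM in knockdown cells in DMSO. These overlapped, and the log2 fold change was -0.09 (SE 0.11, adjusted p = 0.585). Under drug MYC fell by 0.33 (SE 0.12, adjusted p = 0.0259), from 59.6, 48.7 and 46.2 CPM to 42.0, 48.0 and 33.0 CPM, with overlap. The drugs gave 0.24 in control cells (adjusted p = 0.483) and -0.01 in knockdown cells (adjusted p = 0.999), and the interaction was -0.24 (adjusted p = 0.949). Of 11 MYC network genes, 1 fell (9.09%, where 16.2% of all genes did) and 3 rose in DMSO (27.3%, against 15.1%). Under drug 2 fell (18.2%, against 16.3%) and 2 rose (18.2%, against 14.8%), near the shares of all genes. MXD4, a repressor that competes with MYC for its partner MAX, rose by 1.29 in DMSO (SE 0.12), and MAX fell there by 0.23. MXD3 and MLXIP also rose there, by 0.57 and by 0.42. MNT and MXD1 were at -0.31 and -0.53 and did not pass (adjusted p = 0.0655 and 0.101). Of the 11 genes, 6 had negative and 5 positive log2 fold changes in DMSO. Without the control drug library assigned by elimination, 0 of the 11 fell under drug, and MYC was at -0.21 (adjusted p = 0.221). The drugs in control cells then gave MYC 0.11 and the interaction was -0.12. The part of MYC in the members' values was not tested.

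The levels of several members rest on reads that other genes could share, and the strand setting of the counting is not given in the sources used here. In GENCODE release 29, the last 500 exonic bases, where 3′ tags fall, are shared on the same strand to 95.4% by NOP2 with AC006064.6, to 29% by RRS1 with AC009879.2 and to 19.4% by PPAN with P2RY11 and a readthrough gene (59.8% of all its exonic bases). On the opposite strand, RMND5B covers 82.8% of those bases of NHP2, NOP14-AS1 covers 42.0% of those of NOP14, and other genes cover 20.0% of those of POLR1C. WDR74 overlaps genes on both strands. The values of these 7 genes are therefore uncertain. That annotation uses GRCh38 where the submitters' processing notes name hg19, and only names and shares were taken from it. Fewer cells of a kind and less RNA per cell cannot be told apart in these bulk libraries.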

How the data were processed

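The authors deposited 1 table of whole-number gene counts for 12 libraries (4 groups of 3), with no normalization. Per the labels, RNA from a Qiagen RNeasy kit went into Lexogen QuantSeq libraries, which tag the 3′ ends of mRNA, so counts do not grow with transcript length. Per the submitters' processing notes, the tools were bcl2fastq 2.17.1.14, HISAT2 and HTSeq and the build hg19. The annotation and filters were not given in the sources used here. Columns were matched to samples by name, 1 of them by elimination.

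Genes were kept by filterByExpr (minimum count 10, minimum total 15). TMM scaling and a quasi-likelihood fit of all 12 libraries with 1 coefficient per group were run in edgeR 4.0.16 under R 4.3.3, with 8 residual degrees of freedom and two-sided tests. P-values were adjusted by Benjamini-Hochberg over 12602 genes, with a threshold of 0.05. "Rose" and "fell" mean past it. The SE is the fold change over the square root of F. The fit was also run on simulated data, for knockdown in DMSO alone. Most changes of the members were smaller than any simulated there, so that run does not check them. No label calls the replicates separate cultures, and p-values then cover only the spread among these libraries, which may be technical. The members, lists and tests were chosen with earlier results of these data known. All members are accounted for. Library values are given for the 5 largest changes per knockdown comparison, the 2 highest and 2 lowest members and the leading member of each role, and for a few others chosen after their values were seen. Alternatives were scaling (RLE, library totals), filters, DESeq2 1.42.0, limma 3.58.1 (voom), a replicate block, rows left out, thinning, the 2 groups alone, a threshold of 0.01 and each library left out.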

Additional observations from a re-analysis of the deposited data

How the results depend on the processing

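The counts of members lower ranged from 15 to 20 in DMSO and from 14 to 18 under drug over all alternatives run. The count of 1 member higher in DMSO became 0 at a threshold of 0.01 and ranged from 0 to 1 when each library was left out. With library totals without scaling factors the median of members was -0.077 under drug, -0.015 for the drugs in knockdown cells and 0.039 for the interaction, and the split of all genes under drug was 1447 lower and 2691 higher, against 2059 and 1860 with TMM. The construction of that setting moves the median of all genes, to 0.08. When each library was left out, the median of members ranged from -0.19 to -0.15 for knockdown under drug, from -0.068 to -0.021 for the drugs in control cells and from -0.079 to -0.036 for the drugs in knockdown cells. The cause of these shifts was not tested. No called member changed sign. With the replicate number as a replicate block, 19 members were lower and 1 higher in DMSO and 17 and 1 under drug. Libraries of the same number did not deviate together (0 of 18 pairs had a correlation over 0.1, and 7 had their highest with the same number). No pairing by number was seen, though low correlations over all genes cannot exclude that such libraries were handled together. Depth limits the lowest members most: WDR74, at 2.54 CPM, had a SE of 0.27 in DMSO.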
